A study of Homo sapiens with 23 samples.

Results

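The genes described here encode 49 proteins of the kinetochore, the spindle assembly checkpoint and the chromosomal passenger complex. They were chosen by name, from a list with no threshold on measured values that was drawn up with earlier results of these data known, and all 49 were found among the 61806 genes of the first count table and the 42901 genes of the deep-sequencing table. The kinetochore is the protein assembly that forms on centromeric chromatin and binds spindle microtubules in mitosis. Its inner part, the constitutive centromere-associated network (CCAN), sits on nucleosomes that hold the histone variant CENP-A, and its outer part, the KMN network (KNL1, the MIS12 complex and the NDC80 complex), holds the microtubule. Kinetochores without a proper attachment produce a checkpoint signal made of MAD2L1, BUB1B, BUB3 and CDC20, which restrains the anaphase-promoting complex, and the chromosomal passenger complex, with the kinase AURKB, frees wrong attachments. Many of these mRNAs are known to be made mainly in G2 and M phase of the cell cycle, so that a tumour cell line in growth contains them in plenty.

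The cells were A549, a lung adenocarcinoma line, with the genotype given as WT for controls and THUMPD3 knockdown for the rest. The target was THUMPD3, an RNA methyltransferase that places N2-methylguanosine in tRNA. THUMPD3 was depleted by transient transfection of a small interfering RNA (siD3 #3, group siTHUMPD3, against siControl, cells harvested on day 5) or by lentiviral shRNAs under a doxycycline-inducible promoter (shD3 #1 against sh1Control and shD3 #4 against sh4Control, cells harvested on day 6). Each shRNA line was a puromycin-selected population, and the methods set treated against untreated samples, so that any effect of doxycycline in the treated shRNA samples alone cannot be told apart from that of the shRNA. Every group held 3 libraries that the labels call biological replicates, except siControl with 2, and a further 3 libraries each of sh1Control and shD3 #1 were sequenced more deeply. The first 17 libraries held 9854290 to 22101100 counted reads and the 6 deep libraries 27285900 to 59974700. Whether the deep libraries came from the same cultures as the first was not given in the sources used here.

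The target itself fell in every comparison. Levels are given in cpm, the read count of a gene scaled to the size of its library by the TMM method. THUMPD3 stood between 59.4 and 62.3 cpm in sh1Control and between 30.4 and 32.8 cpm in shD3 #1. It ranged from 58.5 to 65.9 cpm in sh4Control and from 19.2 to 20.2 cpm in shD3 #4, and from 65.6 to 68.4 cpm in siControl and from 10.5 to 12.4 cpm in siTHUMPD3. In the deep libraries the ranges were 53.0 to 55.8 cpm and 24.9 to 28.3 cpm. No knockdown library overlapped its controls, and the log2 fold changes were -0.97, -1.67, -2.54 and -1.01 in that order. Each gave p = 0.1 in an exact two-sided permutation test, which cannot go lower with so few libraries. All 5 epithelial and 5 A549 marker genes on the lists were present in all libraries, EPCAM with at least 39 reads. Their levels were not constant. In shD3 #1, CDH1 was called lower (log2 fold change -1.39), KRT19 (1.95) and EPCAM (1.00) were called higher, and KRT8 and KRT18 were not called. Of the A549 markers, ALDH3A1 was called higher there (0.82) and ALDH1A1 was not called (-0.47). The summed level of the epithelial markers spread most in siTHUMPD3, from 2363 to 4958 cpm. The defining markers of leukocytes, endothelium and fibroblasts (PTPRC, PECAM1 and DCN) had at most 10 reads in any library. Other genes of these lists did not all stay near 0. In the first libraries the 3 leukocyte markers summed to at most 0.406 cpm, but in the deep libraries they summed to 45.3 to 48.9 cpm in sh1Control and 89.6 to 97.6 cpm in shD3 #1, nearly all of it CD68, a lysosomal glycoprotein best known from macrophages, whose gene overlaps others in the annotation. CD68 was called higher there, with means of 46.6 and 94.5 cpm. The 3 endothelial markers summed to at most 1.55 cpm in any library, and CDH5 among them was called higher in shD3 #4 (log2 fold change 1.64, adjusted p = 0.00163) and in the deep libraries (1.21, adjusted p = 0.00941). The 3 fibroblast markers summed to at most 5.62 cpm, and LUM among them was called higher in all 4 comparisons, from 0.301 to 1.70 cpm on average in the siRNA experiment. Their part in the results was not tested.

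Kinetochore and checkpoint mRNAs were lower after each THUMPD3 knockdown, most of all with the siRNA. A gene was called when its Benjamini-Hochberg adjusted p in the edgeR quasi-likelihood test was below 0.05 and its fold change was at least 1.5. By this rule 46 of 49 members fell in siD3 #3, where 9.42% of all 17032 genes tested were called lower. In shD3 #1 it was 38 of 49, against 14.6% of all genes, and in shD3 #4 it was 14 of 49, against 4.50%. The median log2 fold change of the members was -2.94 in siD3 #3, -0.87 in shD3 #1 and -0.49 in shD3 #4, while the median over all genes tested was 0.03, -0.01 and 0.01. The median member was left at 12.9%, 55.6% and 71.5% of its control level, respectively. In siD3 #3, 32 members were left below 20% of the control and 20 of them below 10%.

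No member was called higher in any comparison, whereas 14.5% of all genes were called higher in shD3 #1, 8.00% in shD3 #4, 12.5% in siD3 #3 and 15.0% in the deep libraries. At an unadjusted edgeR p below 0.05, without a fold limit, 0 members were higher in the first 3 comparisons and 2, MAD1L1 and SPDL1, in the deep libraries, and DESeq2 also called 0 higher in all 4. The knockdown libraries lay below every control library for 45 members in shD3 #1, 42 in shD3 #4, 48 in siD3 #3 and 38 in the deep libraries. Over all genes tested this held for 31.2%, 24.7%, 29.5% and 34.0%. Since the libraries are bulk RNA, fewer cells in mitosis and less of each mRNA per cell cannot be told apart in these values. The plot of log2 fold changes by complex shows the shift of each member and those that stayed near 0.

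**Figure D1:**
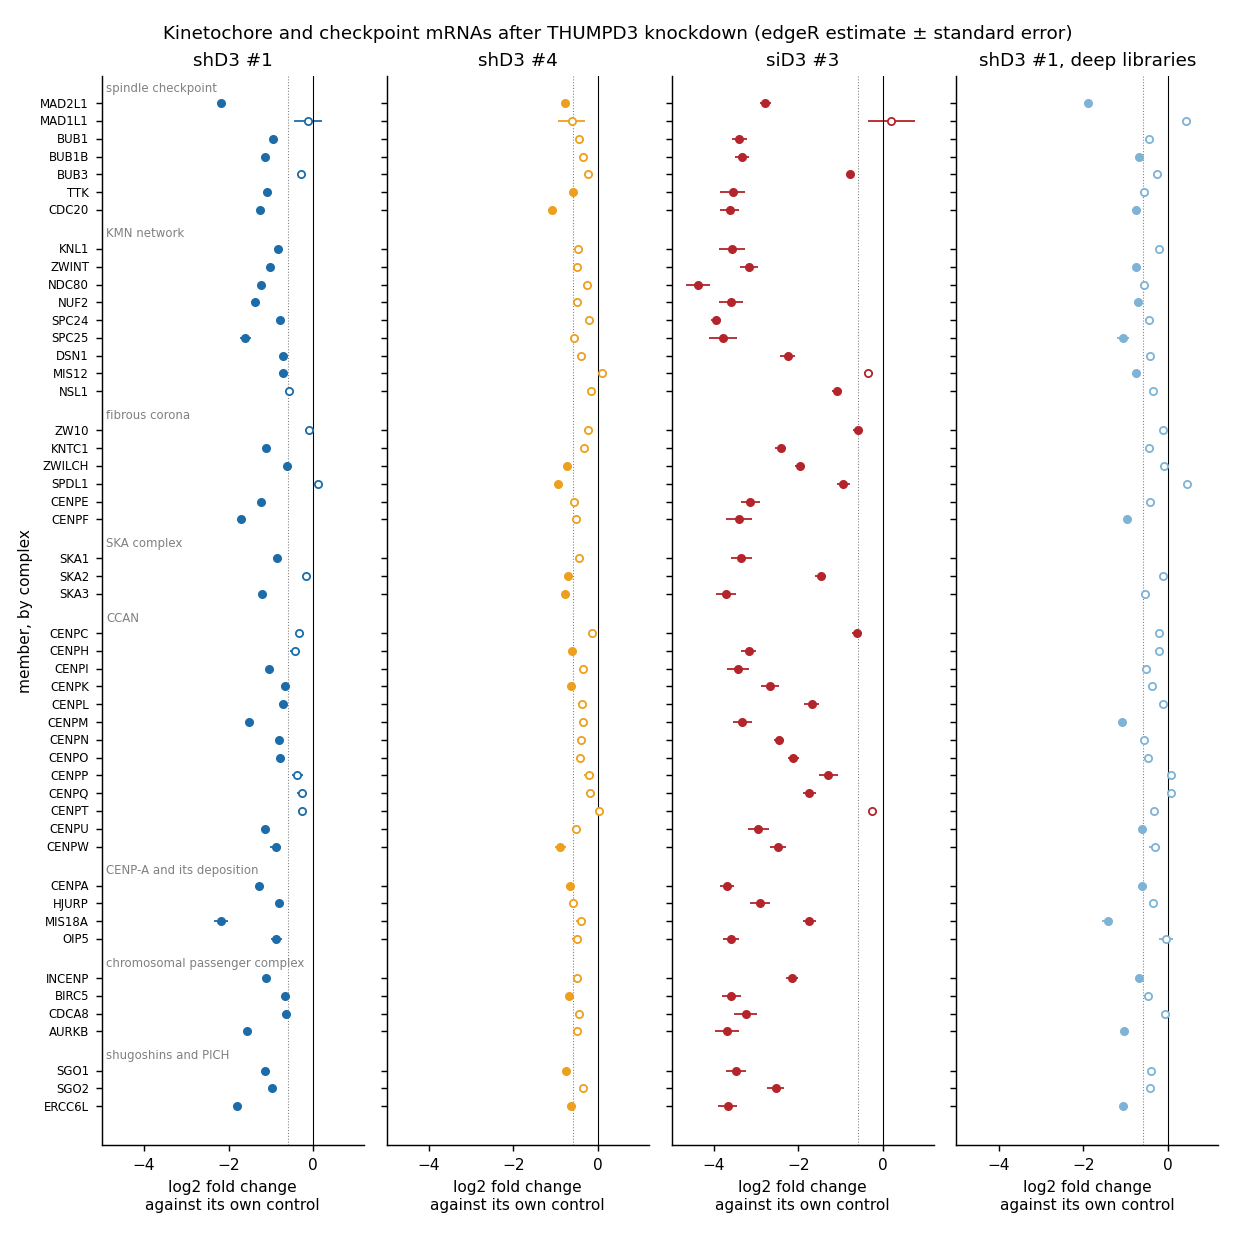
Log2 fold change of each of the 49 members against its own control, with members grouped by complex on the vertical axis and 1 panel per comparison. Points are edgeR estimates, bars are standard errors, filled points passed the call, and the dotted line marks a fold change of 1.5. The siD3 #3 points lie farthest to the left, down to -4.38 for NDC80, and SKA1 has no point in the deep libraries because it was not tested there.

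Summed over all 49 members, the libraries of each group lay close together, except the third siTHUMPD3 library, which was higher than the others of its group. The sums were 3231, 3206 and 3070 cpm in sh1Control and 1547, 1575 and 1691 cpm in shD3 #1. They were 3294, 3293 and 3115 cpm in sh4Control and 2328, 2408 and 2144 cpm in shD3 #4. The siControl libraries held 2968 and 3040 cpm and the siTHUMPD3 libraries 521, 531 and 702 cpm. The third siTHUMPD3 library was the highest of its group for 43 of 49 members. Its counts also differed most from those of its group, with a chi-square per gene of 36.4 and 41.2 against the other siTHUMPD3 libraries, where those 2 gave 4.25 against each other. Without it, 46 members were still called lower. Per kilobase of transcript, the most abundant members in sh1Control were CENPF with 67.5 ± 5.50 (SD, n = 3) cpm per kb, CDC20 with 49.9 ± 1.17 and HJURP with 44.1 ± 2.15, where CDC20 and HJURP were further apart than their spread.

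RefSeq start-site windows of GRCh38.p14 were matched by symbol for 40 members. Of these, 6 had more than 1 window, and the first listed was used. The 9 members with no entry were BIRC5, BUB3, CENPH, CENPL, CENPM, KNL1, KNTC1, MIS18A and TTK. The windows ran from 250 bases before to 50 after the annotated start and were searched on both strands for 3 motifs known from cell cycle gene promoters. These were the cell cycle genes homology region (CHR, letters TTTGAA), which the DREAM and MuvB complexes bind, the CCAAT box of the factor NF-Y, and an E2F site (TTTNGCGC). The letters of the 3 motifs do not contain each other. The CHR letters occurred in 20 of 40 member windows and in 15.4% of all 27305 windows, 1 per gene. The CCAAT letters occurred in 27 of 40 and in 35.7% of all windows, and the E2F letters in 3 of 40 and in 1.83%. In the shorter window from 100 bases before to 50 after the start, the CHR letters were found in 17 of 40 members and 6.91% of all windows, and the CCAAT letters in 21 of 40 and 22.0%. The CHR match nearest the start lay within 50 bases of it in 15 of the 20 members. A match describes the letters alone and is not evidence of binding.

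The part of the window from 100 bases before to 30 after the start is given for the 6 members with the lowest mean log2 fold change over the first 3 comparisons, to show the letters in genes that fell most. Capitals mark CHR and CCAAT letters on either strand (TTTGAA or TTCAAA, and CCAAT or ATTGG). The sequences run 5′ to 3′ on the strand of the gene: ERCC6L at chrX:72238998-72239127 on the minus strand, CDC20 at chr1:43358881-43359010 on the plus strand, SPC25 at chr2:168890401-168890530 on the minus strand, NDC80 at chr18:2571457-2571586 on the plus strand, AURKB at chr17:8210196-8210325 on the minus strand and MAD2L1 at chr4:120066819-120066948 on the minus strand.
ERCC6L: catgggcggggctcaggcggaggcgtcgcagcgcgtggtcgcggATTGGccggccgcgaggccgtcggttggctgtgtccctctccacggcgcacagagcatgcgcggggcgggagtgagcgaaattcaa
CDC20: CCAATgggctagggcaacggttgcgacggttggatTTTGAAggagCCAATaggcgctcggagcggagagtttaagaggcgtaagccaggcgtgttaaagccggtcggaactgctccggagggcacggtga
SPC25: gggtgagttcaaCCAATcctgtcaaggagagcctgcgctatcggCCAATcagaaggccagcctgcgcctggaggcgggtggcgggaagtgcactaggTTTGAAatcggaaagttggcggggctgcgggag
NDC80: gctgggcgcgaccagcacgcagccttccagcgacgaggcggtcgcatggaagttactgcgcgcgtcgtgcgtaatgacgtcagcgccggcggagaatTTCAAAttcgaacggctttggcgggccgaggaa
AURKB: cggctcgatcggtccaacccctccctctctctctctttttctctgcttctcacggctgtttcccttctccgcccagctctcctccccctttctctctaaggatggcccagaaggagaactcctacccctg
MAD2L1: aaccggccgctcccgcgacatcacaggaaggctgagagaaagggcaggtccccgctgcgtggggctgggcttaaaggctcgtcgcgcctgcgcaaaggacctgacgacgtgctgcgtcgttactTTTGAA

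CDC20 carried a CHR between a pair of CCAAT boxes, SPC25 a pair of CCAAT boxes upstream of a CHR, and NDC80 and MAD2L1 a CHR at or just after the start. The ERCC6L part held only a CCAAT box and the AURKB part neither, although the full windows held a CHR farther upstream in ERCC6L and a CCAAT box in AURKB. The full AURKB window lay inside the annotated gene, whose outer upstream end is at chr17:8210600, so the letters at that end were not searched. The windows of SPC25 and MAD1L1 also lay inside their annotated genes. For comparison, the same part is given for the 4 members with a window whose mean log2 fold change was nearest 0: MIS12 at chr17:5486274-5486403 on the plus strand, ZW10 at chr11:113773663-113773792 on the minus strand, MAD1L1 at chr7:2232916-2233045 on the minus strand and CENPT at chr16:67847664-67847793 on the minus strand.
MIS12: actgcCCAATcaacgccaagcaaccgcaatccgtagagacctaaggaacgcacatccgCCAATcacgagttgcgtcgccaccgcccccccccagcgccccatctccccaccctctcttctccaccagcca
ZW10: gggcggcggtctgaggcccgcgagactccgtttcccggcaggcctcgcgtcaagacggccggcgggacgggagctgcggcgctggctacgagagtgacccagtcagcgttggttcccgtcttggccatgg
MAD1L1: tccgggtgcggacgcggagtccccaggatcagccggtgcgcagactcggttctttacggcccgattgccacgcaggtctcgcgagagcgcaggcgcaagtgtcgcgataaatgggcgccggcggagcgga
CENPT: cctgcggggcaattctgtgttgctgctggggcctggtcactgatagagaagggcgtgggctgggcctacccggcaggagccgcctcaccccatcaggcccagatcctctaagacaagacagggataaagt

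MIS12 held a pair of CCAAT boxes, and the other 3 had neither motif in this part. A mean near 0 did not always stand for an unchanged gene. MIS12 was called lower in shD3 #1 (log2 fold change -0.72), and MAD1L1 had only 6 to 25 reads in each of the first libraries, so its estimates are uncertain. Over the full window, the 20 members with CHR letters had median log2 fold changes of -1.13 (shD3 #1), -0.49 (shD3 #4) and -3.29 (siD3 #3), and the 20 without them had medians of -0.74, -0.48 and -2.51. Split by CCAAT letters alone, the 27 members with them had medians of -0.89, -0.51 and -2.90. The 13 without them had medians of -0.86, -0.41 and -3.14, so that in siD3 #3 the median was lower without these letters. The 7 members with neither CHR nor CCAAT letters (CENPE, CENPI, CENPP, CENPT, DSN1, MAD1L1 and NSL1) had medians of -0.57, -0.36 and -1.29. The groups overlapped widely, as the plot by motif shows. SPDL1, CENPC and ZW10 had CHR letters and were not called in shD3 #1. AURKB, BUB1 and SPC24 had none in the window used and fell to 7.69%, 9.43% and 6.41% of control in siD3 #3. For AURKB this says nothing of the letters at the outer upstream end of the gene, which its window did not reach. CENPC and SPC24 were named after their values were seen.

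**Figure D2:**
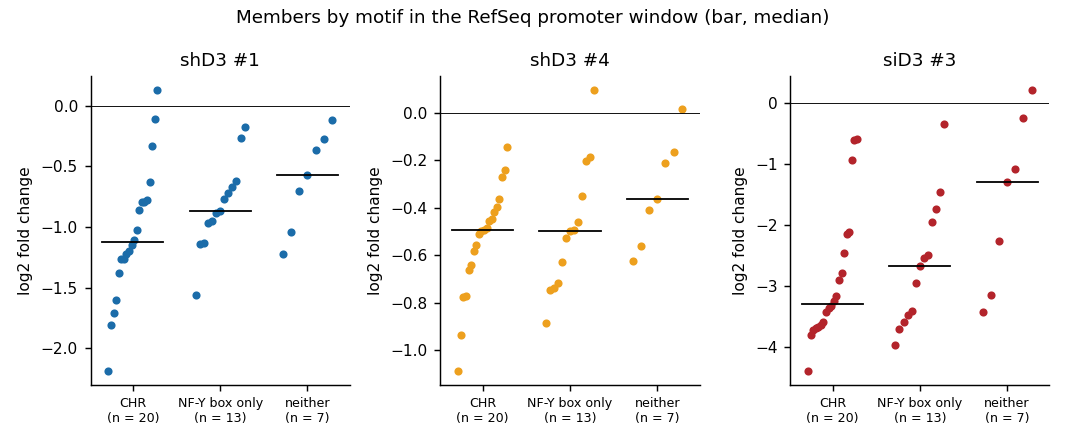
Log2 fold change of the 40 members with a RefSeq window, split on the horizontal axis by whether the window held CHR letters (20 members), CCAAT letters only (13) or neither (7), in 3 comparisons with separate vertical scales. Each point is a member and each bar a median. The median of the members with neither lies nearest 0 in every panel, and the ranges of all groups overlap.

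Of the 7 spindle checkpoint genes, 5 fell in shD3 #1, 3 in shD3 #4 and 6 in siD3 #3, with group medians of -1.10, -0.59 and -3.33 on the log2 scale. MAD2L1, the protein that binds and holds back CDC20, had the lowest fitted log2 fold change in shD3 #1, within the standard error of that of MIS18A. It stood at 48.5, 51.5 and 48.5 cpm in sh1Control and at 10.0, 10.2 and 13.0 cpm in shD3 #1, or -2.19 ± 0.09 as log2 fold change with its standard error (adjusted p = 2.25e-11). In sh4Control it was at 55.8, 57.9 and 46.5 cpm and in shD3 #4 at 31.6, 32.1 and 29.9 cpm (log2 fold change -0.78 ± 0.08, adjusted p = 1.13e-08). In siControl it was at 54.1 and 56.8 cpm and in siTHUMPD3 at 7.72, 7.13 and 9.30 cpm (log2 fold change -2.78 ± 0.13, adjusted p = 8.98e-06). All knockdown libraries were thus below all controls, with 22.4%, 58.4% and 14.5% of the control mean left.

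CDC20, the activator of the anaphase-promoting complex that the checkpoint restrains, fell in all 4 comparisons. Its levels were 82.1, 84.2 and 80.4 cpm in sh1Control and 34.8, 32.5 and 35.6 cpm in shD3 #1, a log2 fold change of -1.27 ± 0.07. They were 102, 95.9 and 90.9 cpm in sh4Control and 47.5, 47.8 and 40.4 cpm in shD3 #4, a log2 fold change of -1.09 ± 0.07 (adjusted p = 6.86e-12). This was the lowest log2 fold change of any member in shD3 #4. The siRNA took CDC20 from 84.8 and 84.7 cpm to 4.76, 6.16 and 9.64 cpm, a 12.4-fold drop.

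BUB1, BUB1B and TTK, which have kinase domains, all fell in shD3 #1 and siD3 #3. BUB1, which recruits other checkpoint proteins to kinetochores, was at 94.8, 93.7 and 91.2 cpm in sh1Control and 46.3, 48.0 and 50.5 cpm in shD3 #1 (log2 fold change -0.95 ± 0.06). In the siRNA experiment it went from 85.3 and 90.3 cpm to 7.49, 6.61 and 10.7 cpm (-3.40 ± 0.18). The shD3 #4 libraries, at 71.3, 72.7 and 63.4 cpm, were also below their controls at 96.2, 98.8 and 89.8 cpm, but the fold of 1.37 was under the limit for a call. BUB1B, the BubR1 subunit of the checkpoint complex, gave 69.3, 63.7 and 67.2 against 27.5, 32.0 and 30.9 cpm in shD3 #1, and 63.3 and 62.0 against 5.37, 5.53 and 7.75 cpm in siD3 #3. Its 65.7, 70.3 and 65.9 cpm in sh4Control against 50.2, 59.1 and 47.7 cpm in shD3 #4 were a fold of 1.29. Part of the BUB1B exons is shared with PAK6 and a read-through transcript, so some of its reads are uncertain. TTK, the MPS1 kinase at the top of the checkpoint, was the only gene of these 3 called in all 3 first comparisons. It was at 60.2, 60.3 and 56.8 cpm against 26.3, 28.3 and 28.2 cpm in shD3 #1, and at 67.2 and 70.7 cpm against 4.14, 4.22 and 9.15 cpm in siD3 #3. In shD3 #4 it passed narrowly, with 69.3, 62.3 and 62.6 against 44.3, 44.3 and 40.0 cpm, a fold of 1.51, and the call was lost without sh4Control replicate 1 (log2 fold change -0.55) or without shD3 #4 replicate 3 (-0.55).

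BUB3 and MAD1L1 were the checkpoint genes with the fewest calls. BUB3, a partner of BUB1 and BUB1B that is also present outside mitosis, was called only in siD3 #3, from 153 and 163 cpm to 91.1, 89.4 and 97.7 cpm (log2 fold change -0.77 ± 0.09). MAD1L1, the kinetochore receptor of MAD2L1, was not called anywhere. It had only 6 to 25 reads in each of the first libraries and 543 to 990 in each deep library, so the first table says little of it. In the deep libraries it was at 16.8, 15.4 and 14.9 cpm in sh1Control and 22.2, 19.9 and 21.1 cpm in shD3 #1, all above the controls at a fold below 1.5 (log2 fold change 0.42 ± 0.07, adjusted p = 8.76e-05).

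**Figure D3:**
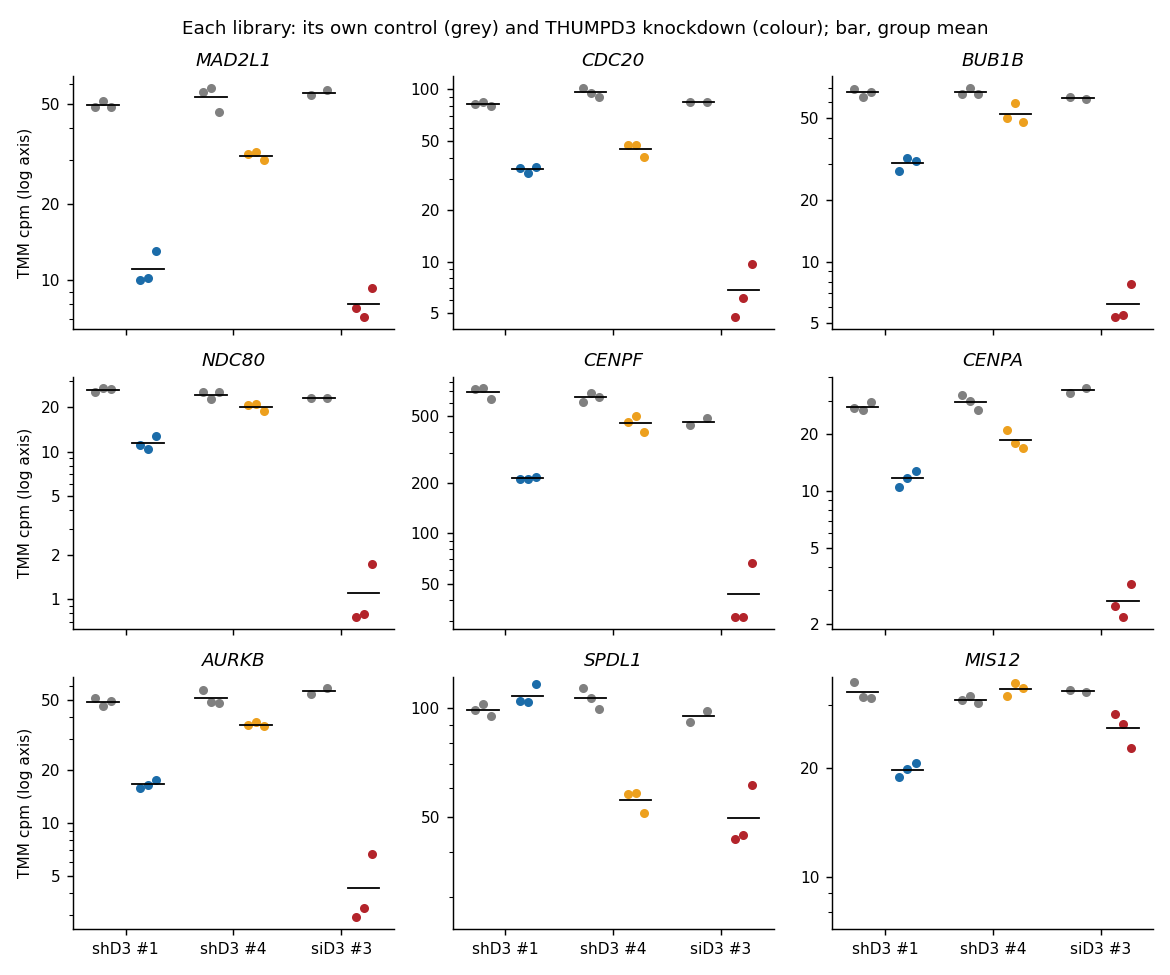
TMM-scaled cpm of 9 members in each of the first 17 libraries, on log axes that differ between panels. Grey points are control libraries, coloured points THUMPD3 knockdown libraries and bars group means. NDC80 goes down to 0.754 cpm in siTHUMPD3, while SPDL1 is not lower in shD3 #1 and MIS12 is not lower in shD3 #4.

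The KMN network and its partner ZWINT gave 8 of 9 members lower in shD3 #1, 8 in siD3 #3 and 0 in shD3 #4, where edgeR found 8 of 9 lower at an unadjusted p below 0.05 and DESeq2 also called 0. The group medians were -0.84, -3.58 and -0.41 on the log2 scale. NDC80, the subunit that meets the microtubule, had the largest fall of all members with the siRNA. Its levels went from 23.1 and 23.2 cpm in siControl to 0.754, 0.798 and 1.74 cpm in siTHUMPD3, a 21.1-fold drop that left 4.75%. In shD3 #1 it was at 11.0, 10.5 and 12.8 cpm against 25.5, 27.0 and 26.5 cpm in the control (log2 fold change -1.22 ± 0.09). In shD3 #4 the levels of 20.7, 21.2 and 18.7 cpm lay just below the control levels of 25.3, 22.7 and 25.2 cpm (log2 fold change -0.27 ± 0.08).

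SPC25 and KNL1, of the same network, fell in the same comparisons as NDC80. SPC25, whose window is printed above, was at 11.0, 10.2 and 11.2 cpm in sh1Control and 3.47, 3.45 and 3.86 cpm in shD3 #1, and at 9.84 and 9.20 cpm in siControl and 0.330, 0.684 and 1.04 cpm in siTHUMPD3. Its shD3 #4 libraries, at 9.34, 9.33 and 8.36 cpm, were below 13.8, 14.3 and 11.7 cpm in the control with a fold of 1.47. KNL1, the scaffold that BUB1 docks on, had 126, 129 and 122 cpm against 66.0, 69.0 and 76.3 cpm in shD3 #1. It had 121, 125 and 116 cpm against 91.4, 89.6 and 81.1 cpm in shD3 #4, and 102 and 101 cpm against 6.31, 5.64 and 13.4 cpm in siD3 #3. The siRNA thus left 8.34% of KNL1, while shD3 #4 left 72.4% and was not called.

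MIS12, the subunit that names the complex linking the inner and outer kinetochore, had another pattern than the rest of its network. It was called lower in shD3 #1 only, with 34.8, 31.5 and 31.2 cpm in the control and 18.9, 19.9 and 20.6 cpm in the knockdown (log2 fold change -0.72 ± 0.08, adjusted p = 7.48e-07). The deep libraries gave 32.3, 30.5 and 33.1 cpm against 18.0, 18.2 and 20.5 cpm (-0.75 ± 0.06). In shD3 #4 the libraries overlapped, with 30.9, 31.8 and 30.4 cpm against 31.7, 34.5 and 33.4 cpm. With the siRNA it was at 33.0 and 32.5 cpm against 28.2, 26.5 and 22.8 cpm (log2 fold change -0.34 ± 0.12, adjusted p = 0.054). MIS12 overlaps DERL2 on the genome, so that some of its reads are uncertain.

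The fibrous corona is the outermost layer that unattached kinetochores build, and 4 of its 6 genes fell in shD3 #1, 2 in shD3 #4 and all 6 in siD3 #3. CENPF, a large corona protein and the most abundant member per length in sh1Control, went from 722, 732 and 630 cpm to 210, 211 and 217 cpm in shD3 #1 (log2 fold change -1.71 ± 0.07). The siRNA took it from 439 and 483 cpm to 31.6, 31.8 and 66.4 cpm (-3.41 ± 0.31). In shD3 #4 the levels were 606, 681 and 652 cpm against 457, 502 and 403 cpm, a fold of 1.42. CENPE, the kinesin that moves chromosomes to the spindle middle, gave 145, 155 and 130 cpm against 62.0, 61.2 and 60.7 cpm in shD3 #1. It gave 139, 136 and 138 against 94.0, 104 and 81.7 cpm in shD3 #4, a fold of 1.48, and 93.4 and 91.3 against 7.63, 9.46 and 14.4 cpm in siD3 #3. The highest CENPF and CENPE values of the siRNA group were those of replicate 3.

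The dynein adaptors of the corona were less uniform. SPDL1 (Spindly), which brings dynein to the kinetochore, fell in shD3 #4 from 114, 107 and 99.7 cpm to 57.7, 58.2 and 51.1 cpm (log2 fold change -0.94 ± 0.07) and in siD3 #3 from 91.5 and 98.3 cpm to 43.4, 44.5 and 61.4 cpm (-0.93 ± 0.15). In shD3 #1 its libraries at 105, 104 and 116 cpm were all above the controls at 98.9, 103 and 95.4 cpm (0.13 ± 0.07, adjusted p = 0.112). The deep libraries again showed it above the controls, at 85.4, 88.2 and 92.1 cpm against 65.7, 67.9 and 60.7 cpm (0.45 ± 0.05, adjusted p = 2.94e-06), a fold below the limit. SPDL1 was singled out after its values were seen. ZW10, a subunit of the RZZ complex that SPDL1 works with, is also part of a Golgi tethering complex. It was at 26.4, 23.9 and 24.2 against 24.8, 20.7 and 24.2 cpm in shD3 #1, and at 27.6, 24.5 and 25.3 against 24.0, 21.8 and 19.5 cpm in shD3 #4. It passed in siD3 #3 with 26.9 and 28.6 against 17.4, 18.3 and 19.6 cpm, a fold of 1.51 that was lost without siControl replicate 2 (log2 fold change -0.56), siTHUMPD3 replicate 1 (-0.54) or siTHUMPD3 replicate 2 (-0.58).

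The SKA complex couples the NDC80 complex to shortening microtubules, and its 3 genes all fell in siD3 #3. SKA3 was called in all 3 first comparisons. Its values were 25.5, 27.1 and 23.7 against 10.3, 11.4 and 11.6 cpm in shD3 #1, 29.1, 27.8 and 24.0 against 15.1, 17.4 and 15.1 cpm in shD3 #4, and 27.9 and 28.4 against 1.51, 1.94 and 2.98 cpm in siD3 #3. SKA2 was called in shD3 #4 and siD3 #3 and not in shD3 #1, although the difference between shRNAs (0.54 on the log2 scale) was under the fold limit. It overlapped between groups in shD3 #1, with 42.1, 44.6 and 45.8 against 39.2, 36.9 and 42.1 cpm, and was called in shD3 #4, with 55.9, 58.7 and 45.5 against 35.2, 32.6 and 29.5 cpm. With the siRNA SKA2 went from 60.7 and 68.1 cpm to 19.6, 24.5 and 25.9 cpm, leaving 36.2%. SKA1 had 39 to 626 reads in each of the first libraries and 0 or 1 in each deep library, and so was not tested in the deep libraries.

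Of the 13 CCAN genes, which stay at the centromere through the whole cell cycle, 8 fell in shD3 #1, 3 in shD3 #4 and 12 in siD3 #3. The medians were -0.71, -0.37 and -2.45, and the siRNA values spread from -3.43 for CENPI to -0.25 for CENPT. CENPM fell from 13.9, 13.6 and 14.7 cpm to 5.21, 5.10 and 4.37 cpm in shD3 #1 and from 17.1 and 14.5 cpm to 1.74, 1.08 and 1.84 cpm in siD3 #3. In shD3 #4 its levels were 16.7, 15.4 and 14.2 against 11.5, 11.6 and 13.2 cpm, a fold of 1.28. CENPT, which ties the centromere to the NDC80 complex, was called in no comparison. It had 24.2, 25.9 and 25.3 against 21.0, 21.6 and 19.4 cpm in shD3 #1, 23.0, 24.5 and 23.3 against 23.2, 24.9 and 23.7 cpm in shD3 #4, and 23.8 and 25.3 against 19.8, 20.2 and 22.1 cpm in siD3 #3. Some CENPT exons overlap genes on the other strand, and the strand setting of the counting was not given in the sources used here. CENPC, the other main link between CENP-A chromatin and the outer kinetochore, had 65.6% of control left in siD3 #3 and 79.4% in shD3 #1, where it was not called, and its siD3 #3 call was lost without siControl replicate 2 or siTHUMPD3 replicate 1.

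The 4 genes of CENP-A and its deposition all fell in shD3 #1 and in siD3 #3, and CENPA alone was called in shD3 #4. CENPA itself, the centromeric histone variant, was at 27.7, 26.8 and 29.4 against 10.6, 11.7 and 12.8 cpm in shD3 #1. It was at 32.4, 29.8 and 26.9 against 21.1, 17.97 and 16.95 cpm in shD3 #4, and at 33.2 and 35.1 against 2.50, 2.17 and 3.23 cpm in siD3 #3, where 7.71% was left. HJURP, the chaperone that loads CENP-A, went from 147, 138 and 133 to 73.4, 81.3 and 86.4 cpm in shD3 #1 and from 160 and 139 to 15.2, 16.8 and 28.1 cpm in siD3 #3. In shD3 #4 it was at 150, 149 and 138 against 98.6, 104 and 90.4 cpm, a log2 fold change of -0.58 ± 0.07 just short of the limit. MIS18A, which prepares the centromere for loading, was the member with the least left in shD3 #1 (21.5%), at 12.7, 10.1 and 12.1 against 3.07, 2.60 and 1.83 cpm. It was among only 5 members whose log2 fold change was not lowest in siD3 #3, and it was named after its values were seen. OIP5, its partner, fell to 8.22% in siD3 #3, but its exons overlap an antisense RNA and NUSAP1 on the other strand.

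All 4 genes of the chromosomal passenger complex fell in shD3 #1 and in siD3 #3, and BIRC5 alone was called in shD3 #4. AURKB, its kinase, went from 51.0, 46.2 and 48.9 cpm to 15.8, 16.4 and 17.5 cpm in shD3 #1 (log2 fold change -1.56 ± 0.07) and from 54.2 and 58.0 cpm to 2.92, 3.31 and 6.71 cpm in siD3 #3 (-3.70 ± 0.29). In shD3 #4 it was at 56.7, 48.8 and 47.6 against 35.7, 37.1 and 35.6 cpm (-0.50 ± 0.07). BIRC5 (survivin), which brings the complex to the centromere, was called with both shRNAs. It was at 99.5, 95.0 and 106 against 62.5, 55.3 and 74.6 cpm in shD3 #1, 134, 117 and 102 against 76.3, 75.0 and 66.8 cpm in shD3 #4, and 127 and 151 against 9.65, 9.06 and 16.1 cpm in siD3 #3. Its call in shD3 #1 was lost without shD3 #1 replicate 2 (log2 fold change -0.55). INCENP, the scaffold, was the member of this complex that fell least with the siRNA, from 88.2 and 71.3 cpm to 16.3, 16.2 and 21.3 cpm, against 118, 110 and 112 to 52.8, 57.6 and 46.8 cpm in shD3 #1 and 102, 113 and 117 to 77.4, 85.6 and 72.3 cpm in shD3 #4, where it was not called.

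The shugoshins guard the cohesin that joins sister centromeres, and PICH, the product of ERCC6L, coats the fine DNA bridges of anaphase. All 3 genes fell in shD3 #1 and siD3 #3, and SGO1 and ERCC6L also in shD3 #4. ERCC6L had the lowest mean of all members with a printed window. Its levels were 55.6, 50.1 and 53.0 against 13.4, 16.5 and 15.3 cpm in shD3 #1, 52.4, 51.1 and 48.6 against 34.1, 32.5 and 30.9 cpm in shD3 #4, and 46.2 and 47.2 against 2.68, 3.14 and 5.17 cpm in siD3 #3. SGO2 was at 40.9, 40.1 and 37.6 against 19.4, 20.6 and 20.9 cpm in shD3 #1 and at 29.3 and 29.7 against 4.19, 4.33 and 6.71 cpm in siD3 #3. Its shD3 #4 values of 29.4, 32.2 and 26.8 cpm were below 35.0, 40.6 and 37.1 cpm in the control, with a fold of 1.27.

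**Figure D4:**
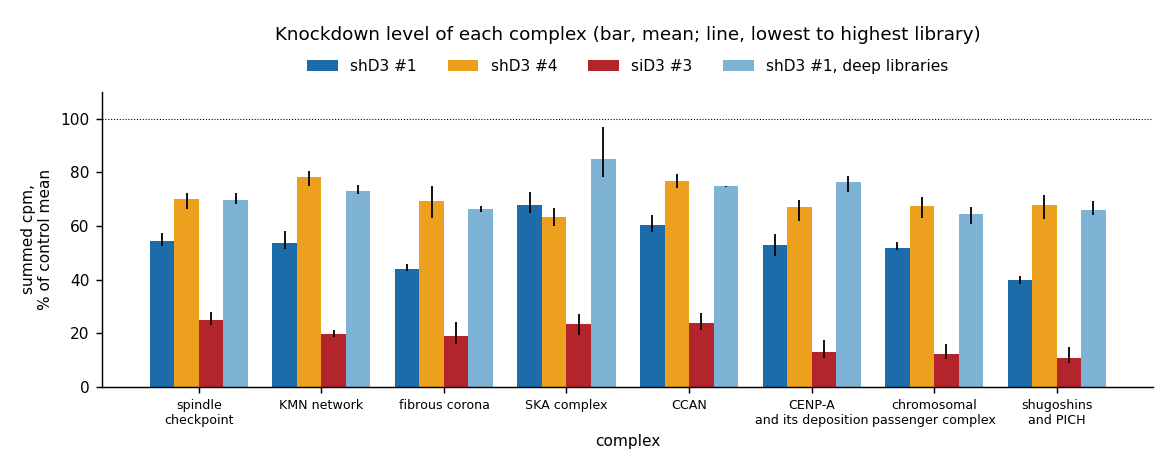
Cpm summed over the genes of each complex in the knockdown libraries, as a percentage of the mean sum of their controls (dotted line, 100%). Bars are means and lines run from the lowest to the highest knockdown library. The siD3 #3 bars are the lowest for all 8 complexes, and SKA1, near 0 in the deep libraries, adds almost nothing to the deep bar of the SKA complex.

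Across the 3 first comparisons, 11 members were called lower in every one, and 0.805% of the 15656 genes tested in all 3 were. These were MAD2L1, TTK and CDC20 of the checkpoint, ZWILCH of the corona, SKA3, CENPK and CENPW of the CCAN, CENPA, BIRC5, SGO1 and ERCC6L. Only 4 of these 11, MAD2L1, CDC20, CENPA and ERCC6L, were also called in the deep libraries of shD3 #1. ZWILCH had a log2 fold change of -0.10 there, with overlapping libraries. A further 26 were called in shD3 #1 and siD3 #3, 3 (SPDL1, SKA2 and CENPH) in shD3 #4 and siD3 #3, 6 in siD3 #3 only and MIS12 in shD3 #1 only. MAD1L1 and CENPT were called in none. The 3 comparisons had separate controls and were harvested at different times for siRNA and shRNA.

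Whether the effects differed was tested in a model of all 17 libraries, as the difference of log2 fold changes. The fall was deeper in siD3 #3 than in shD3 #1 for 40 of 49 members, against 11.7% of all 18672 genes tested, and deeper than in shD3 #4 for 42, against 8.56%. No member showed the reverse by this rule, where 13.6% and 9.25% of all genes did. Without adjustment and fold limit, MIS12 alone did against shD3 #1 and 0 members against shD3 #4, and DESeq2 called 0 in both. The median differences were -1.80 and -2.41 on the log2 scale. NDC80 had the largest difference between siD3 #3 and shD3 #4 (-4.10 ± 0.21, adjusted p = 1.78e-11). MAD2L1 was 1 of the 9 members not called between siD3 #3 and shD3 #1, with a difference of -0.58 ± 0.16 just short of the fold limit. Among these 9, MIS18A (0.45), MIS12 (0.39), MAD1L1 (0.34) and CENPT (0.04) had estimates in the reverse direction. The THUMPD3 mRNA left was also lowest in siTHUMPD3, and since siRNA and shRNA differed in delivery, day of harvest and controls, these cannot be told apart from depth of knockdown.

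Between the shRNAs, 18 members were lower in shD3 #1 than in shD3 #4 and 1 was higher, while 13.8% and 12.1% of all genes were. THUMPD3 itself had 51.3% of control left in shD3 #1 and 31.4% in shD3 #4. The largest differences were those of MIS18A (-1.77 ± 0.21), MAD2L1 (-1.41 ± 0.14), CENPF (-1.20 ± 0.24), ERCC6L (-1.17 ± 0.16), CENPM (-1.16 ± 0.17) and AURKB (-1.07 ± 0.19). The difference for CDC20 (-0.18 ± 0.17, adjusted p = 0.436) did not pass. SPDL1 was the member that was higher (1.06 ± 0.14, adjusted p = 5.30e-06), and MIS12 differed by -0.82 ± 0.11 (adjusted p = 7.29e-06), with its estimates on either side of 0. The plot of differences by member shows the whole range.

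**Figure D5:**
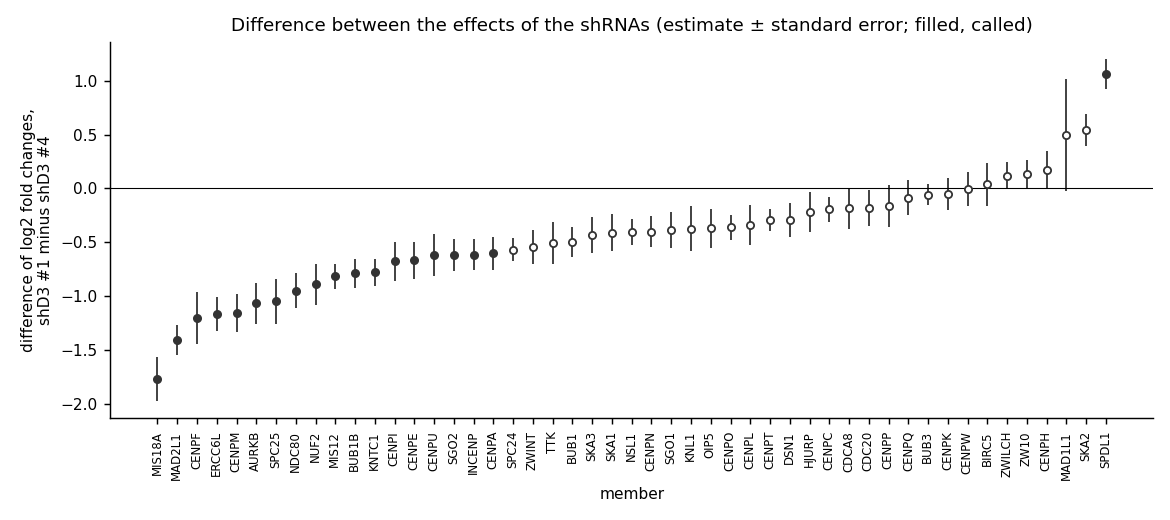
Difference of log2 fold changes, shD3 #1 minus shD3 #4, for each of the 49 members, sorted along the horizontal axis. Points are edgeR estimates, bars standard errors, and filled points passed the adjusted p and fold limits. The values run from -1.77 for MIS18A to 1.06 for SPDL1, with 18 filled points below 0 and 1 above.

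The deep libraries repeated the shD3 #1 comparison with smaller folds. In them 15 of 48 members tested were called lower, where 14.1% of all genes were, and the median log2 fold change was -0.44. All 15 were also called in the first shD3 #1 libraries, namely MAD2L1, BUB1B, CDC20, NUF2, SPC25, MIS12, ZWINT, CENPF, CENPM, CENPU, CENPA, MIS18A, INCENP, AURKB and ERCC6L. MAD2L1 was at 23.6, 25.2 and 24.2 cpm in sh1Control and 5.70, 6.62 and 7.31 cpm in shD3 #1 (log2 fold change -1.89 ± 0.08), and MIS18A at 6.12, 5.85 and 6.66 against 2.12, 2.49 and 2.35 cpm (-1.42 ± 0.12). AURKB was at 57.9, 59.9 and 54.4 against 28.0, 28.1 and 28.2 cpm. These 3 members, and also SPC25, CENPM and ERCC6L, were left at under 50% of control in both sets. KNL1, at 107, 111 and 103 against 91.5, 96.0 and 91.4 cpm, and OIP5, at 3.67, 4.30 and 4.98 against 3.23, 4.53 and 4.82 cpm, were called in the first libraries and not in the deep ones. Of the 48 members, 37 were lower by adjusted p alone, where 31.5% of all genes were. The tables were counted on different annotations, so levels were not compared between them.

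Other genes of the pathway were read from lists of the same kind. Of 14 further centromere and kinetochore genes, 7 fell in shD3 #1, 5 in shD3 #4 and 10 in siD3 #3, with KIF2C, the depolymerising kinesin of the centromere, at log2 fold changes of -0.91, -0.73 and -3.50. MAD2L1BP, which helps to take the checkpoint complex apart, had the highest mean of that list and was not called (0.29, -0.09 and -0.27). Of the 17 genes listed for the anaphase-promoting complex, the target of the checkpoint, 2 fell in shD3 #1, 1 in shD3 #4 and 6 in siD3 #3. Of all genes, 14.6%, 4.50% and 9.42% were called lower, and the medians of the list were -0.18, -0.18 and -0.44. The genes called with the shRNAs were UBE2C and UBE2S in shD3 #1 and UBE2S in shD3 #4. Both are ubiquitin-conjugating enzymes that work with the complex, and no subunit was called lower with either shRNA. UBE2C had the lowest mean of the list at -1.03, -0.45 and -3.47, whereas the small subunit ANAPC13 was at 0.23, -0.21 and -0.02 and was not called. Of 15 cohesion genes, 9, 2 and 7 fell, with ESCO2, a cohesin acetyltransferase, at -1.19, -0.41 and -3.69 and the cohesin loader NIPBL uncalled at -0.24, 0.09 and 0.39.

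General cell cycle markers were read beside the members. Of 10 G2 and M phase markers, 10 fell in shD3 #1, 4 in shD3 #4, 10 in siD3 #3 and 3 in the deep libraries, with medians of -1.20, -0.53, -3.45 and -0.39. Their summed level went from between 2770 and 2919 cpm to between 1161 and 1234 cpm in shD3 #1, from 2807 to 2863 down to 1876 to 2170 cpm in shD3 #4, and from 2396 to 2440 down to 188 to 318 cpm in siD3 #3. TOP2A, the topoisomerase that disentangles sister chromatids, had the lowest mean, at -1.54, -0.44 and -3.69, and AURKA, the spindle pole kinase, the highest, at -1.28, -0.58 and -2.61. Of 13 S phase markers, 7, 6, 13 and 2 fell, where 14.6%, 4.50%, 9.42% and 14.1% of all genes were called lower, so that the share in the deep libraries was near that of all genes. Their medians were -0.63, -0.58, -2.65 and -0.22. CDC45, part of the replicative helicase, was at -1.23, -0.55 and -3.57 and TYMS, thymidylate synthase, at 0.06, -0.32 and -0.79. The part of these shifts in the fall of the members was not tested.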

How the data were processed

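Ribosomal-depleted total RNA was made into directional libraries. Per the submitters' processing notes and the methods, the authors trimmed reads with Trimmomatic 0.40 and counted reads per gene with STAR 2.7.10a on GRCh38.p14, and deposited raw counts, not normalised and not pooled, in 2 tables. The methods name the RefSeq annotation, whereas the first table holds Ensembl identifiers and the deep table symbols. The strand column used was not given in the sources used here. Symbols came from GENCODE 44, to which 61757 of 61806 identifiers matched.

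Each comparison was fitted with edgeR 4.0.16 (R 4.3.3, TMM, filterByExpr, quasi-likelihood test, Benjamini-Hochberg over all genes tested) on its own libraries, and differences between knockdowns in 1 model of 17 libraries. Standard errors were taken from the quasi-likelihood F. DESeq2 1.42.0, other size factors, filters, thresholds, a replicate block and leaving out each library were alternatives. The fits were tested on counts simulated with the same dispersion for every gene and library, which does not copy the spread of these libraries. The pass limit for the test of differences between knockdowns was changed after its first run. With 2 or 3 libraries a group, p-values and standard errors rest on the spread between these libraries, with dispersion estimates shared across genes. They do not measure variation beyond these libraries.

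The members and lists were chosen with earlier results of these data known. Named genes were 13 set in advance, the lowest and highest mean log2 fold change of each complex and other list, and THUMPD3. Figures used matplotlib 3.10.9.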

Additional observations from a re-analysis of the deposited data

Results flagged for a closer look

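The effects of the knockdowns on the members differed by a test of the difference itself. This held for 19 members between shD3 #1 and shD3 #4, for 40 between siD3 #3 and shD3 #1 and for 42 between siD3 #3 and shD3 #4 (edgeR, adjusted p below 0.05 and a fold of at least 1.5). Of all 18672 genes tested, 13.8% were lower and 12.1% higher in shD3 #1 than in shD3 #4. The lower and higher shares were 11.7% and 13.6% for siD3 #3 minus shD3 #1, and 8.56% and 9.25% for siD3 #3 minus shD3 #4. Single members whose estimates lay on either side of 0 were SPDL1, with differences of 1.062 for shD3 #1 minus shD3 #4 and -1.041 for siD3 #3 minus shD3 #1, and MIS12, with -0.817 for shD3 #1 minus shD3 #4. The causes of these differences were not tested.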

How the results depend on the processing

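The counts of members called changed with the threshold. With a fold of at least 2, 21 members were lower in shD3 #1, 1 in shD3 #4 and 6 in the deep libraries, where 6.60%, 1.13% and 6.81% of all genes were. By adjusted p alone, 42 were lower in shD3 #4 and 37 in the deep libraries, against 20.8% and 31.5% of all genes, and 2 were higher in the deep libraries, against 31.1%. Under glmTreat, which tests against the fold limit itself, 2 were lower in shD3 #4, against 1.09% of all genes. The other size factors, DESeq2, both filters and the fit of all 17 libraries kept every count of members called within 1.5 times its value.

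Some estimates that were not called changed sign. Leaving out each library in turn, MAD1L1 ranged from -0.493 to 0.0346 in shD3 #1, where sh1Control replicate 2, shD3 #1 replicate 1 or shD3 #1 replicate 3 turned it from -0.12, and from -0.0248 to 0.50 in siD3 #3, where siControl replicate 2 turned it from 0.20. With the replicate block MAD1L1 was at -0.40 in siD3 #3. CENPT ranged from -0.0156 to 0.0430 in shD3 #4, where sh4Control replicate 1 or 3 or shD3 #4 replicate 2 turned it from 0.02.

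Leaving out each library in turn kept all 80 counts within that range. Of the members called lower, 36 of 38 in shD3 #1, 12 of 14 in shD3 #4, 44 of 46 in siD3 #3 and 13 of 15 in the deep libraries were called in every such fit. Besides those given with the results, CDCA8 lost its call in shD3 #1 without sh1Control replicate 3 (-0.54) or shD3 #1 replicate 1 (-0.58), CENPH in shD3 #4 without sh4Control replicate 1 (-0.55), sh4Control replicate 2 (-0.58) or shD3 #4 replicate 3 (-0.55), and CENPA and CENPU in the deep libraries without shD3 #1 replicate 2 (-0.52) or replicate 3 (-0.57). HJURP was called in shD3 #4 without a filter on low counts (-0.59) or in the fit of all 17 libraries (-0.60), NDC80 in the deep libraries without that filter (-0.59), and ZW10 lost its siD3 #3 call with at least 10 counts required in every library (-0.54).

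Same-numbered libraries did not deviate together. Their correlations were -0.03, 0.13 and 0.04 in shD3 #1, 0.07, 0.09 and 0.00 in shD3 #4, 0.17 and -0.15 in siD3 #3, and -0.08, 0.05 and 0.02 in the deep libraries, so the numbers were not taken to pair them. With the replicate number as a block, 38 members were lower in shD3 #1, 14 in shD3 #4, 46 in siD3 #3 and 15 in the deep libraries, as without it. In the shorter promoter window the E2F letters were found in 0 of 40 members. With any listed window of a gene, an alternative chosen after seeing the data, the CHR letters were in 20 of 40 members and 18.17% of genes.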
